A study of Mus musculus with 12 samples.

Results

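Lipoprotein lipolysis and fatty acid uptake were followed through 10 genes, taken by name from the 61210 genes of the count table: Lpl, Gpihbp1, Angptl4, Angptl8, Vldlr, Cd36, Fabp3, Fabp4, Fabp5 and Slc27a1. All 10 were among the 16737 genes with enough counts to be tested. Total RNA of brown adipose tissue (labelled iBAT, interscapular per the study's methods) was sequenced from wild type C57BL/6N mice aged 20 weeks, with 3 libraries in each of 4 groups. The mice were on control chow diet (NCD) at room temperature, on NCD with 24 h at 4 °C, on high-fat diet (HFD) for 12 weeks from the age of 8 weeks at room temperature, or on the same HFD with 24 h at 4 °C. All 4 groups share genotype, strain and age, and no group carries a transgene. The study used these libraries to look for long noncoding RNAs with a role in this tissue, and the groups also allow the response of coding genes to cold and to HFD to be measured.

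Brown adipose tissue burns fatty acids for heat and draws many of them from triglyceride-rich lipoproteins in blood. Lipoprotein lipase (LPL) is made by adipocytes, is carried across the capillary wall by GPIHBP1 and cleaves triglycerides on its luminal side, where ANGPTL proteins restrain it. The freed fatty acids enter cells with the help of the surface receptor CD36 and of transport proteins such as FATP1 (Slc27a1), and fatty acid binding proteins (FABPs) carry them inside.

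For 4 members with a promoter entry in RefSeq (GRCm38.p6, from the C57BL/6J strain), the bases before the start site are shown, since Fabp3, Cd36 and Vldlr were higher after cold on NCD and Slc27a1 was lower in the HFD groups. Each run holds the 250 bases before the RefSeq start, 5′ to 3′ along the gene (where there are several starts, the one nearest to the annotated start of the gene, from which the starts shown lay 0 to 143 bases away, but that of Cd36 52905 bases away, inside the gene), and capitals mark exact matches on either strand to AGGTCA (an element bound by nuclear receptors), TGACG (the core of a cAMP response element) or CCAAT.
Fabp3, chr4:130308488-130308737, plus strand: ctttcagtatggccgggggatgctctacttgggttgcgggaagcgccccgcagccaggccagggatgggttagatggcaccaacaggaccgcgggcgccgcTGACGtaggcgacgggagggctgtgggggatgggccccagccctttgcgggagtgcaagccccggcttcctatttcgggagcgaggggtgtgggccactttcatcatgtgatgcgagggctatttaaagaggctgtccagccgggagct
Cd36, chr5:17835897-17836146, minus strand: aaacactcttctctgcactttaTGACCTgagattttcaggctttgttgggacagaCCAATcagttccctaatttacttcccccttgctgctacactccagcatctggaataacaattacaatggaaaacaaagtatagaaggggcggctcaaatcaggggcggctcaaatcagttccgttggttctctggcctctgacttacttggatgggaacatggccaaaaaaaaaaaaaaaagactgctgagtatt
Vldlr, chr19:27216234-27216483, plus strand: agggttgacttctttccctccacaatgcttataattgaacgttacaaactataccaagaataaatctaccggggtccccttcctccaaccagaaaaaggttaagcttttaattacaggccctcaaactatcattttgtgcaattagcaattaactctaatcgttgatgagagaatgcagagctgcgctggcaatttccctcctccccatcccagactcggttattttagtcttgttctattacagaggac
Slc27a1, chr8:71568621-71568870, plus strand: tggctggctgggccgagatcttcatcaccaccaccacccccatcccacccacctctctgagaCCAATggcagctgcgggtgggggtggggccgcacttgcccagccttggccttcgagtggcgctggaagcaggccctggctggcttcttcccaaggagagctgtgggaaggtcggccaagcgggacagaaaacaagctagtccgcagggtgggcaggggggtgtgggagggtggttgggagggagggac

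The windows searched ran from 250 bases before to 50 bases after each start, on both strands. Of all 32851 such RefSeq windows, 16.3% held AGGTCA, 20.8% TGACG and 37.4% CCAAT. Fabp3 held 1 TGACG, which began 149 bases before the start, and neither of the other motifs. Cd36 held 1 AGGTCA on the opposite strand, 228 bases before the start, and 1 CCAAT at 195 bases. Slc27a1 held a CCAAT at 188 bases, and the Vldlr window shown held none of the 3. The full cAMP response element TGACGTCA, which contains TGACG and was in 1.79% of all windows, and the direct repeat of AGGTCA with 1 base between its copies, in 0.0396%, were in none of the members' windows. In all, 5 of the 10 members had entries, 8 in number. The fifth, Angptl8, held no motif, and Slc27a1 and Vldlr have further starts with a CCAAT in 1 window each.

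Levels are given as CPM, counts relative to the total of the library, scaled between libraries by TMM. A gene was called changed at an adjusted p under 0.05 with an absolute log2 fold change over 0.5 in edgeR's quasi-likelihood test, adjusted over all 16737 genes. Each fold change is followed by its standard error (SE) on the log2 scale. Libraries held 15136861 to 46740702 counts, and the members between 296 (Angptl8) and 406358 (Fabp4) in a library. The labels put replicates 1 and 2 of every group in batch 1 and replicate 3 in batch 2, which was sequenced more deeply (34067515 counts or more against at most 21026727). Of 8 brown adipocyte markers, all were detected in every library, and their summed level was 6997 to 8697 CPM on NCD at room temperature, 19814 to 23101 on NCD in the cold, 8995 to 11412 on HFD at room temperature and 15543 to 19250 on HFD in the cold. Ucp1, which encodes the uncoupling protein of this tissue, rose in the cold on both diets. The log2 fold change was 1.96 (SE 0.17, edgeR adjusted p = 0.000274) on NCD and 0.92 (SE 0.17, adjusted p = 0.00656) on HFD. Ucp1 was also called higher for HFD at room temperature (0.74, SE 0.17, adjusted p = 0.0484), but not for HFD in the cold (-0.30, SE 0.17, adjusted p = 0.328). Of the 8 markers 3 were called higher and none lower for cold on NCD (Ucp1, Dio2 and Ppargc1a). For cold on HFD 2 were called higher (Ucp1 and Dio2) and 1 lower, the adipocyte hormone gene Adipoq (-0.69, adjusted p = 0.0232). The shares of all genes were 3.72% higher and 2.55% lower for cold on NCD, and 5.39% and 4.19% for cold on HFD. In 1 library of each group the sum of 10 skeletal muscle markers stood far above the other libraries of its group: 31732 CPM in NCD room temperature replicate 2, 18174 in NCD cold replicate 2, 56499 in HFD room temperature replicate 3 and 9247 in HFD cold replicate 3. In the other 8 libraries it was 1072 to 6051 CPM. The counts of changed genes below were therefore also taken from those 8.

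Cold on NCD raised 5 of the 10 genes, Lpl, Vldlr, Cd36, Fabp3 and Fabp4, and lowered none, against 3.72% of all genes tested that rose and 2.55% that fell (6.27% in either direction). On HFD, cold raised Lpl and Fabp3 and lowered Slc27a1, with 5.39% of all genes higher and 4.19% lower (9.58% in all). HFD at room temperature raised Fabp3 and lowered Fabp5 and Slc27a1, where 0.992% of all genes rose and 1.09% fell (2.09%). HFD in the cold raised Fabp3 and lowered Fabp4, Fabp5 and Slc27a1, where 2.06% rose and 2.69% fell (4.75%). The median log2 fold change of the 10 genes was 0.55, 0.29, 0.03 and -0.01 in these 4 comparisons, and over all genes tested it was -0.01, -0.04, 0.03 and 0.02. In the 8 libraries with less muscle RNA, 2 genes were called for cold on NCD (Lpl and Fabp3), 3 for cold on HFD, none for HFD at room temperature and 2 for HFD in the cold (Fabp5 and Slc27a1). The shares of all genes called in that fit were 1.69%, 4.39%, 0.432% and 2.31%. It kept replicates 1 and 3 of the NCD groups and replicates 1 and 2 of the HFD groups. Batch 2 was thus in the NCD groups only, so diet and batch cannot be fully told apart in its HFD comparisons. Each of the 4 groups enters 2 of the comparisons, so the comparisons are not independent of each other.

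**Figure D1:**
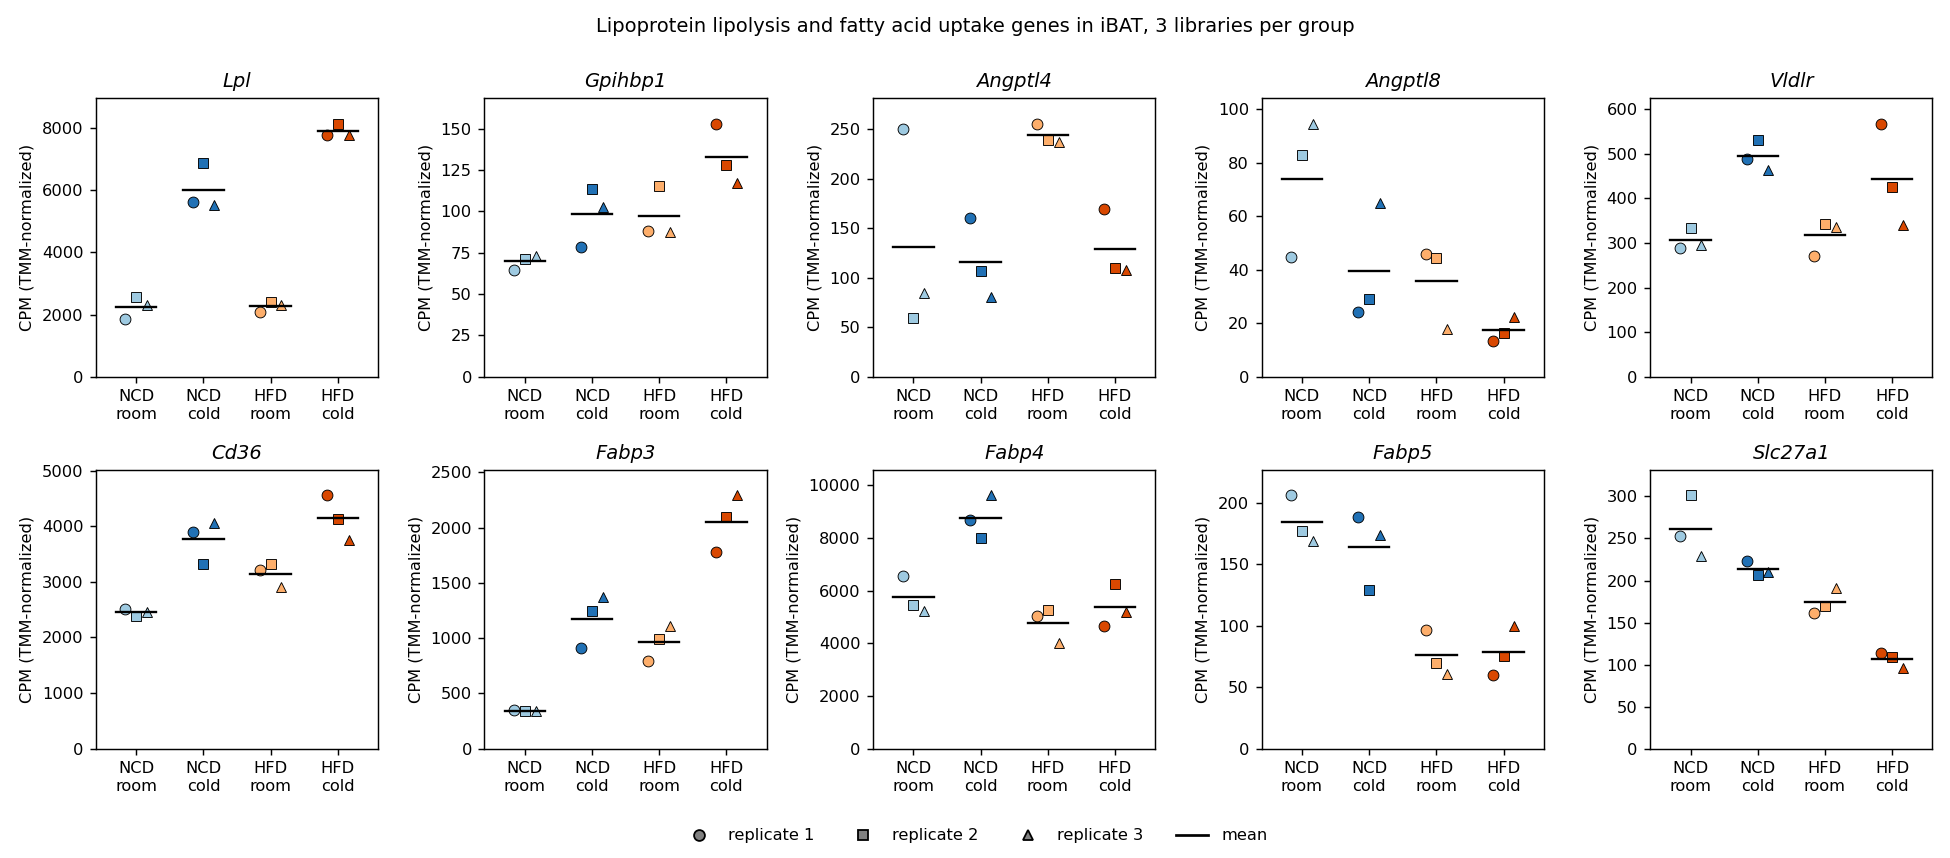
CPM of each gene (linear axes from 0) in the 3 libraries of each group, with the replicate number as the symbol and the group mean as a line. Lpl rose from 1866 to 2560 CPM on NCD at room temperature to 7776 to 8134 on HFD in the cold, Slc27a1 was lowest on HFD in the cold (95.5 to 114), and Angptl4 of NCD room temperature replicate 1 (250 CPM) stood apart from the other libraries of its group.

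In a test of any difference among the 4 groups, at an edgeR adjusted p under 0.001, Lpl (4.3e-05), Fabp3 (6.92e-05) and Slc27a1 (0.000302) passed, where 2.55% of all genes did. The interaction of diet and cold passed an adjusted p of 0.05 for none of the members and for 0% of all genes in edgeR. Without adjustment, 2 members had a p under 0.05 for the interaction, Fabp3 (0.0162, adjusted 0.686) and Slc27a1 (0.0306, adjusted 0.74), as had 1091 of all genes. A difference of the cold change between the diets was thus not shown for any of these genes, also where it was called on 1 diet only.

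Lpl (chr8:68880491-68907448, plus strand, GRCm38) was the enzyme gene of the group and 1 of its largest changes. On NCD its level was 1866, 2560 and 2311 CPM at room temperature and 5601, 6879 and 5519 CPM in the cold. On HFD it was 2096, 2393 and 2294 CPM at room temperature and 7776, 8134 and 7781 CPM in the cold. Every cold library lay above every room temperature library of either diet. Cold raised Lpl 2.67-fold on NCD (log2 fold change 1.42, SE 0.15, edgeR adjusted p = 0.000535) and 3.49-fold on HFD (1.80, SE 0.15, adjusted p = 0.000168). Diet did not pass the threshold at either temperature. The log2 difference of HFD from NCD was 0.01 (SE 0.14, adjusted p = 0.983) at room temperature and 0.40 (SE 0.14, adjusted p = 0.13) in the cold, where every HFD library nonetheless lay above every NCD library. The summed brown adipocyte markers, given above, were likewise higher in every cold library than in any room temperature library of either diet, although most of the 8 were not called and Adipoq fell on HFD, and their part in the Lpl values was not tested.

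Gpihbp1 (chr15:75596628-75599481, plus strand), which encodes the capillary anchor of LPL, is a gene of endothelial cells. It stood at 64.8, 71.5 and 73.0 CPM on NCD at room temperature, at 78.6, 114 and 102 CPM on NCD in the cold, at 88.3, 115 and 87.4 CPM on HFD at room temperature and at 153, 128 and 117 CPM on HFD in the cold. The 2 groups did not overlap in any of the 4 comparisons, with the cold or HFD libraries always higher. It passed the threshold in none of them. The log2 fold changes were 0.49 for cold on NCD (SE 0.16, edgeR adjusted p = 0.087), 0.45 for cold on HFD (SE 0.16, adjusted p = 0.0887), 0.47 for HFD at room temperature (SE 0.16, adjusted p = 0.148) and 0.43 for HFD in the cold (SE 0.16, adjusted p = 0.133). Without NCD cold replicate 1, the lowest of its group, cold on NCD was called (0.64, adjusted p = 0.0387).

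The summed level of the 9 of 10 endothelial markers found in the table was lowest and highest in the same groups as Gpihbp1. It was 643 to 796 CPM on NCD at room temperature, 889 to 1009 on NCD in the cold, 910 to 1195 on HFD at room temperature and 1185 to 1349 on HFD in the cold. All 9 were tested, and only Pecam1, an adhesion molecule of endothelial cells, was called. It was higher for cold on NCD (log2 fold change 0.58) and for the diet at room temperature (0.72), where 3.72% and 0.992% of all genes were. The part of these markers in the Gpihbp1 values was not tested. In such bulk tissue, more cells of a type and more RNA per cell cannot be told apart.

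Angptl4 (chr17:33773750-33781830, minus strand) encodes an inhibitor of LPL made by adipocytes. On NCD its level was 250, 59.5 and 84.7 CPM at room temperature and 160, 107 and 80.2 CPM in the cold. On HFD it was 256, 239 and 237 CPM at room temperature and 169, 110 and 108 CPM in the cold. On HFD every cold library lay below every room temperature library, while on NCD the groups overlapped, with replicate 1 at room temperature at more than any cold library. No comparison passed the threshold. The log2 fold changes were -0.18 for cold on NCD (SE 0.44, edgeR adjusted p = 0.872), -0.92 for cold on HFD (SE 0.45, adjusted p = 0.207), 0.89 for HFD at room temperature (SE 0.45, adjusted p = 0.323) and 0.15 for HFD in the cold (SE 0.44, adjusted p = 0.886). Without NCD room temperature replicate 1, cold on NCD turned to 0.68 and HFD at room temperature was called (1.73, adjusted p = 0.0363). When replicate numbers were fitted as blocks inside each diet, the fall in the cold on HFD was called (-0.95, adjusted p = 0.0301). It was also called in a fit of the 6 HFD libraries alone (-0.91, SE 0.19, adjusted p = 0.043).

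Angptl8 (chr9:21835510-21837347, plus strand) encodes a small secreted protein that acts on LPL together with other ANGPTL proteins and responds to feeding. It was the least counted of the 10. Its level was 44.6, 82.7 and 94.6 CPM on NCD at room temperature, 24.3, 29.1 and 65.0 CPM on NCD in the cold, 45.8, 44.3 and 17.9 CPM on HFD at room temperature and 13.3, 16.4 and 22.2 CPM on HFD in the cold. Its mean was lower after cold and on HFD in all 4 comparisons, but the groups overlapped in all except HFD in the cold. The log2 fold changes were -0.90, -1.05, -1.05 and -1.19 in the order of the comparisons above, with SEs of 0.44 and edgeR adjusted p-values of 0.261, 0.153, 0.238 and 0.139. The gene lies within Dock6 on the opposite strand and shares no exon base with it.

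Vldlr (chr19:27216484-27254231, plus strand) encodes the very low density lipoprotein receptor, which binds such particles at the cell surface. On NCD it measured 288, 334 and 295 CPM at room temperature and 488, 529 and 463 CPM in the cold. On HFD it measured 271, 343 and 336 CPM at room temperature and 567, 424 and 339 CPM in the cold, so that the groups overlapped by 1 library. Cold raised it 1.62-fold on NCD (log2 fold change 0.69, SE 0.17, edgeR adjusted p = 0.0332), and the change on HFD did not pass (0.49, SE 0.17, adjusted p = 0.0908). Diet differed by 0.05 (SE 0.17) at room temperature and -0.15 (SE 0.17) in the cold. The call for cold on NCD was lost without any 1 of the 6 NCD libraries (log2 fold change 0.64 to 0.76, adjusted p = 0.0516 to 0.105). Cold on HFD was called without HFD cold replicate 3 (0.65, adjusted p = 0.0311) and by DESeq2 on all libraries (0.50, adjusted p = 0.0284).

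**Figure D2:**
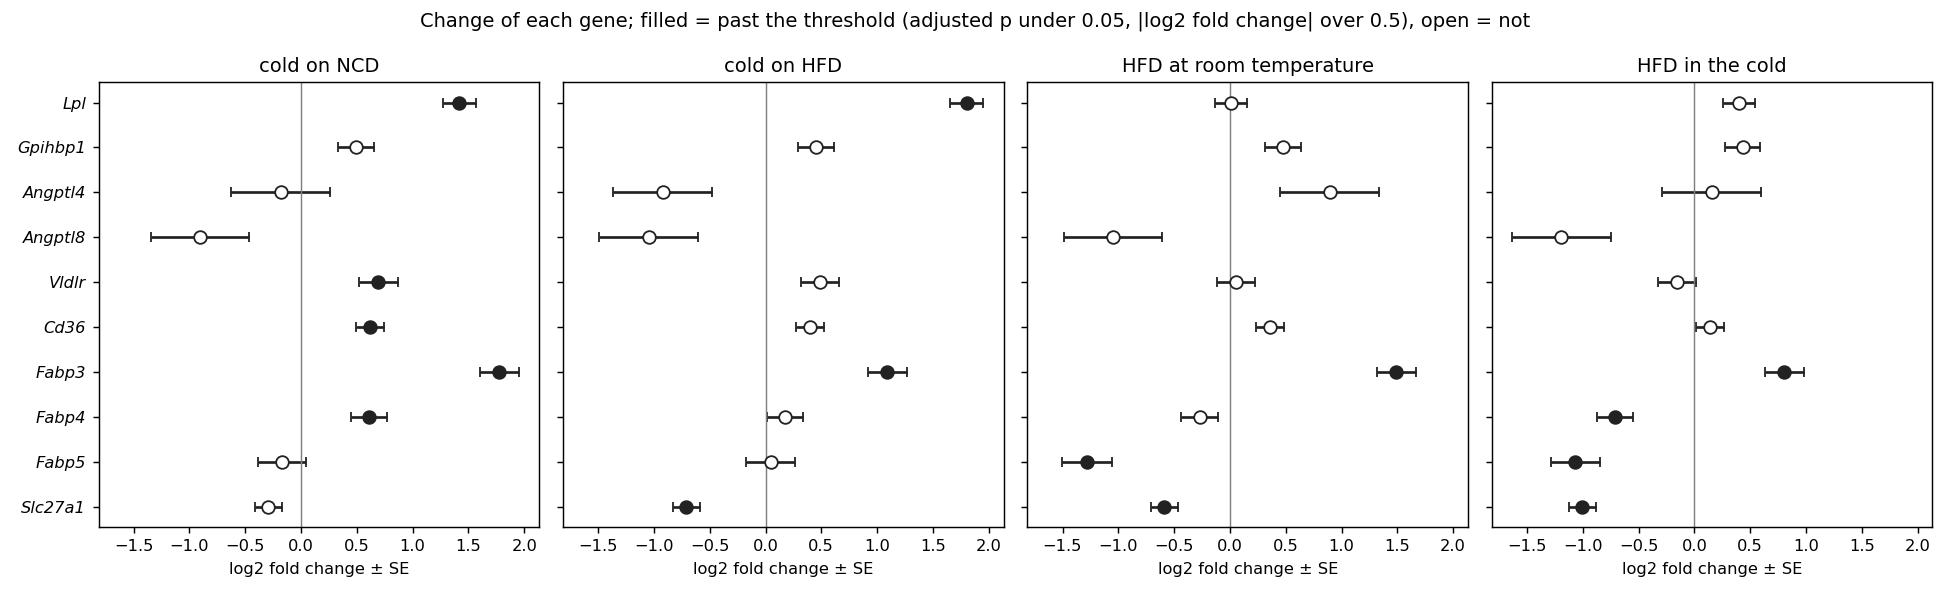
Log2 fold change (horizontal axis) with its SE as the bar for each gene in the 4 comparisons, filled where the gene passed the threshold. Lpl lay at 1.42 and 1.80 for cold and near 0 for HFD at room temperature (0.01), while Fabp3 lay above 0 in all 4 comparisons (0.81 to 1.78).

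Cd36 (chr5:17781690-17888801, minus strand) encodes a scavenger receptor that takes up long-chain fatty acids. Its level was 2519, 2390 and 2456 CPM on NCD at room temperature and 3893, 3330 and 4065 CPM on NCD in the cold. On HFD it was 3221, 3315 and 2907 CPM at room temperature and 4560, 4137 and 3753 CPM in the cold. The cold groups lay wholly above the room temperature groups on both diets, and at room temperature HFD lay above NCD. Only cold on NCD passed the threshold, at 1.53-fold (log2 fold change 0.62, SE 0.12, edgeR adjusted p = 0.0132). The other log2 fold changes were 0.40 for cold on HFD (SE 0.12, adjusted p = 0.0591), 0.36 for HFD at room temperature (SE 0.12, adjusted p = 0.155) and 0.14 for HFD in the cold (SE 0.12, adjusted p = 0.557). Without NCD room temperature replicate 2, the call for cold on NCD was lost (0.60, adjusted p = 0.0555).

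Slc27a1 (chr8:71568882-71587302, plus strand) encodes FATP1, a fatty acid transport protein with acyl-CoA synthetase activity, and was lower on HFD at both temperatures. Its level was 254, 302 and 229 CPM on NCD at room temperature, 223, 207 and 210 CPM on NCD in the cold, 161, 170 and 191 CPM on HFD at room temperature and 114, 110 and 95.5 CPM on HFD in the cold. These 4 ranges did not overlap, and they fell in this order. HFD lowered Slc27a1 at room temperature (log2 fold change -0.59, SE 0.12, edgeR adjusted p = 0.0308) and in the cold (-1.01, SE 0.12, adjusted p = 0.00193). Cold lowered it on HFD (-0.71, SE 0.12, adjusted p = 0.00453), and the difference of cold on NCD did not pass (-0.29, SE 0.12, adjusted p = 0.174). The call at room temperature was lost without NCD room temperature replicate 1 (-0.64, adjusted p = 0.0691) or 2 (-0.48, adjusted p = 0.113) and without HFD room temperature replicate 1 (-0.57, adjusted p = 0.0737) or 2 (-0.57, adjusted p = 0.108), and the other calls held without any 1 library.

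Fabp3 (chr4:130308595-130315463, plus strand), the fatty acid binding protein of heart and muscle, which brown fat also makes, rose in every comparison. On NCD its level was 347, 341 and 340 CPM at room temperature and 906, 1247 and 1372 CPM in the cold. On HFD it was 793, 988 and 1112 CPM at room temperature and 1779, 2092 and 2294 CPM in the cold. NCD at room temperature was lowest and HFD in the cold highest with no overlap, while NCD in the cold and HFD at room temperature overlapped between them. Cold raised Fabp3 3.43-fold on NCD (log2 fold change 1.78, SE 0.18, edgeR adjusted p = 0.000498) and 2.13-fold on HFD (1.09, SE 0.17, adjusted p = 0.00327). HFD raised it 2.81-fold at room temperature (1.49, SE 0.18, adjusted p = 0.00226) and 1.75-fold in the cold (0.81, SE 0.17, adjusted p = 0.0257). The last call was lost without NCD cold replicate 1 (0.64, adjusted p = 0.0876) or HFD cold replicate 3 (0.73, adjusted p = 0.0825).

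Because muscle makes FABP3 as well, its level was set beside the muscle markers. The 3 NCD libraries at room temperature held 340 to 347 CPM of Fabp3 over muscle marker sums of 4615 to 31732 CPM, and HFD cold replicates 1 and 2, with the lowest sums of all (1072 and 1302 CPM), held 1779 and 2092 CPM. In both HFD groups the library with the highest muscle sum was also the highest for Fabp3: HFD room temperature replicate 3 held 56499 CPM of muscle markers and 1112 CPM of Fabp3 against 793 and 988 in the other libraries, and HFD cold replicate 3 held 9247 and 2294 CPM. On NCD in the cold the library with the highest sum (18174 CPM) was the middle of 3 for Fabp3, at 1247 CPM. In the 8 libraries with less muscle RNA the cold changes were 1.73 on NCD (edgeR adjusted p = 0.0165) and 1.12 on HFD (adjusted p = 0.0332). There the HFD changes were 1.37 at room temperature (adjusted p = 0.0506) and 0.76 in the cold (adjusted p = 0.103), with 2 libraries a group. In that fit batch 2 was in the NCD groups only, so diet and batch cannot be fully told apart. The part of muscle RNA in the Fabp3 values of all 12 libraries was not tested further. Of its exon bases 81 overlap Zcchc17 on the opposite strand, which had at most 1164 counts in a library against at least 5582 for Fabp3. An annotated processed pseudogene, Fabp3-ps1, is 99.3% identical over 402 bases. It was not found in the count table and was not analysed here.

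**Figure D3:**
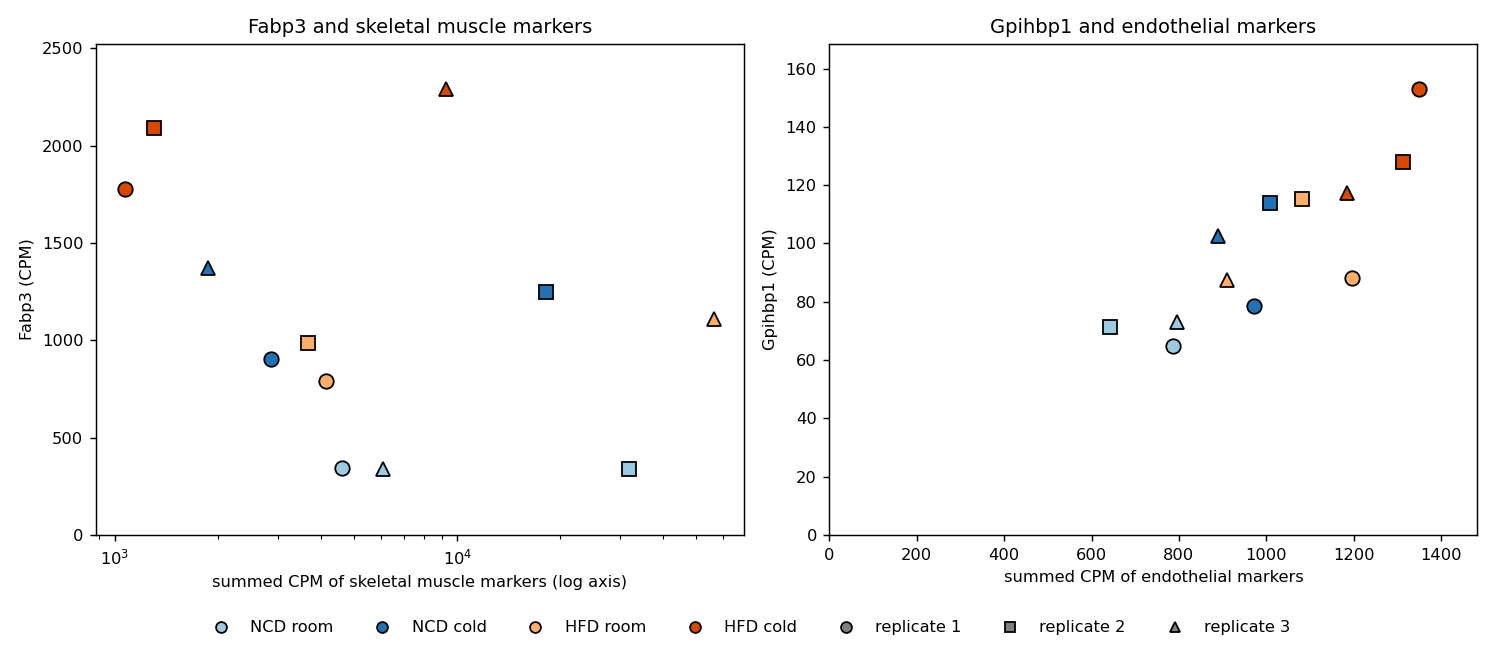
Left, Fabp3 CPM against the summed CPM of 10 skeletal muscle markers (log axis); right, Gpihbp1 CPM against the summed CPM of 9 endothelial markers, with group as colour and replicate as symbol. Fabp3 stayed at 340 to 347 CPM on NCD at room temperature while the muscle sum ran from 4615 to 31732 CPM, and in both HFD groups the library with the highest muscle sum (56499 and 9247 CPM) was also the highest for Fabp3 (1112 and 2294 CPM), while the HFD cold libraries were highest for Gpihbp1 (117 to 153 CPM).

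Fabp4 (chr3:10204088-10208576, minus strand), the main fatty acid binding protein of adipocytes and of capillary endothelium, was the most counted of the 10. On NCD its level was 6553, 5464 and 5225 CPM at room temperature and 8663, 8012 and 9619 CPM in the cold. On HFD it was 5026, 5263 and 3990 CPM at room temperature and 4642, 6247 and 5196 CPM in the cold. NCD in the cold lay above all other libraries, which overlapped among themselves. Cold raised Fabp4 1.52-fold on NCD (log2 fold change 0.61, SE 0.16, edgeR adjusted p = 0.0444), with 0.17 on HFD (SE 0.16, adjusted p = 0.523). HFD lowered it in the cold (-0.71, SE 0.16, adjusted p = 0.033), with -0.27 at room temperature (SE 0.16, adjusted p = 0.405). The rise on NCD was lost without any 1 of 10 libraries, all but HFD room temperature replicate 3 and HFD cold replicate 2 (0.55 to 0.72 over all 12, adjusted p = 0.0333 to 0.147), and with a replicate block (adjusted p = 0.0585). The fall in the cold was lost without NCD room temperature replicate 2 (-0.71, adjusted p = 0.0512), NCD cold replicate 1 (-0.73, adjusted p = 0.0838) or 3 (-0.65, adjusted p = 0.1), or HFD cold replicate 1 (-0.59, adjusted p = 0.138) or 3 (-0.68, adjusted p = 0.114).

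Fabp5 (chr3:10012548-10016607, plus strand), the epidermal member of the family, lies near Fabp4 on chromosome 3 and fell on HFD. Its level was 206, 178 and 169 CPM on NCD at room temperature and 188, 130 and 174 CPM on NCD in the cold. On HFD it was 96.7, 70.1 and 61.0 CPM at room temperature and 59.8, 75.5 and 99.6 CPM in the cold. All 6 HFD libraries lay below all 6 NCD libraries, and within a diet the temperatures overlapped. HFD lowered Fabp5 at room temperature (log2 fold change -1.28, SE 0.22, edgeR adjusted p = 0.0139) and in the cold (-1.07, SE 0.22, adjusted p = 0.021), and the cold differences were -0.17 on NCD and 0.05 on HFD (SE 0.22 each).

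The HFD calls of Fabp5 were lost without certain single libraries. With each library left out in turn, the log2 fold change was -1.53 to -1.14 at room temperature and -1.27 to -0.87 in the cold. At room temperature the call was lost without NCD replicate 1 (-1.22, edgeR adjusted p = 0.0596), HFD replicate 2 (-1.23, adjusted p = 0.0714) or HFD replicate 3 (-1.14, adjusted p = 0.0524). In the cold it was lost without NCD replicate 1 (-0.96, adjusted p = 0.0848) or 3 (-1.03, adjusted p = 0.0744) or HFD replicate 1 (-0.87, adjusted p = 0.0982). The annotation holds 5 processed pseudogenes with 93.6 to 98.3% identity to Fabp5 over 336 to 409 bases. None of them was found in the count table, and they were not analysed here.

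Pairs of members with related roles were also described by ratios of counts in each library, in which sequencing depth cancels. They carry no correction for gene length and are set only between libraries. Fabp3 had 5.30, 6.25 and 6.51 counts per 100 Fabp4 counts on NCD at room temperature and 10.5, 15.6 and 14.3 on NCD in the cold. On HFD it had 15.8, 18.8 and 27.9 at room temperature and 38.3, 33.5 and 44.1 in the cold. The 4 ranges did not overlap. The receptor Cd36 had 7.93 to 10.7 counts per Slc27a1 count on NCD at room temperature and 37.8 to 40.1 on HFD in the cold, with the other groups between them (16.1 to 19.3 on NCD in the cold, 15.2 to 20.0 on HFD at room temperature). The enzyme Lpl had 8.20, 10.01 and 9.70 counts per count of its inhibitor Angptl4 on HFD at room temperature and 46.0, 74.2 and 72.3 on HFD in the cold, whereas on NCD the ratio was 7.47, 43.0 and 27.3 at room temperature and 35.0, 64.4 and 68.8 in the cold, which overlapped.

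**Figure D4:**
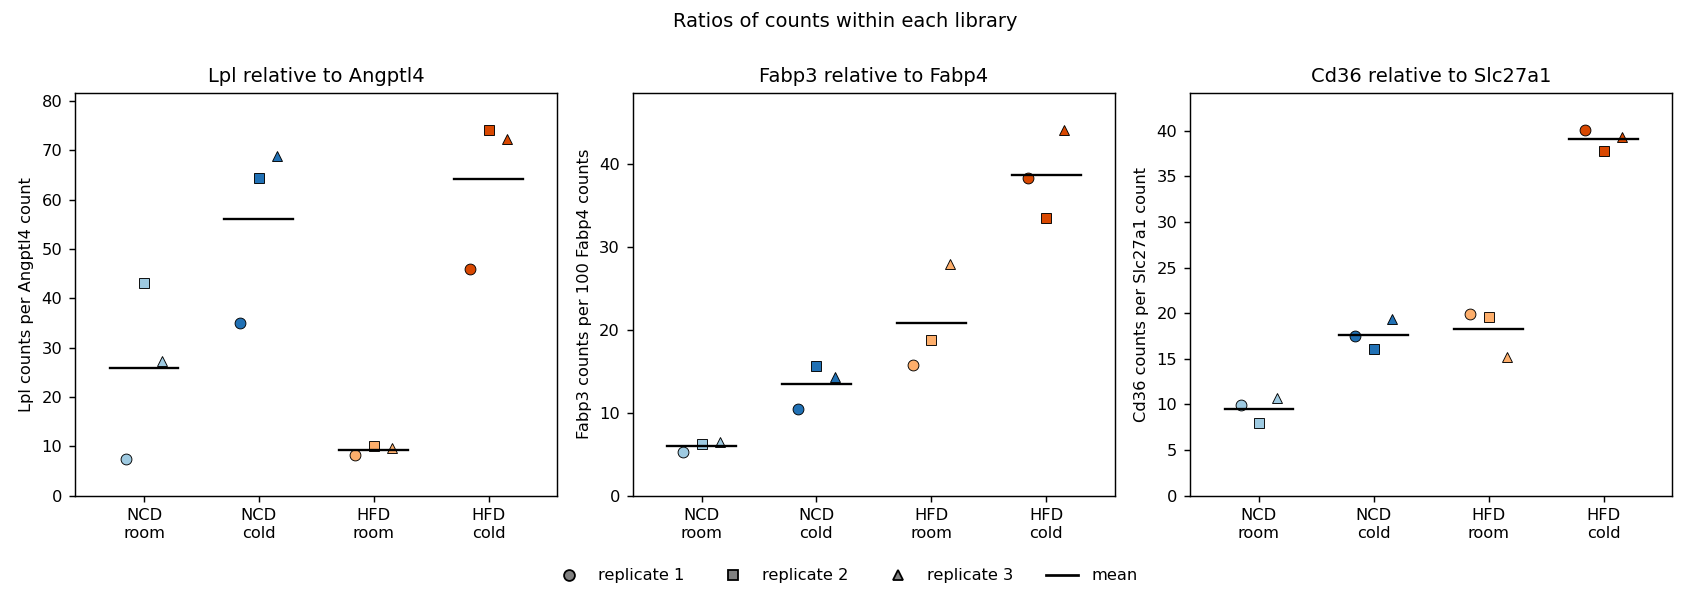
Counts of Lpl per Angptl4 count, of Fabp3 per 100 Fabp4 counts and of Cd36 per Slc27a1 count in every library (vertical axes from 0), with the group mean as a line. Fabp3 per 100 Fabp4 ran from 5.30 to 6.51 on NCD at room temperature up to 33.5 to 44.1 on HFD in the cold, and the NCD room temperature libraries were widely spread in Lpl per Angptl4 (7.47 to 43.0).

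Between genes, levels were compared per kilobase of the longest coding transcript, a length chosen after the values were seen, because the exon union of Fabp4, Fabp5 and Lpl is far longer than their coding transcripts. On this scale Fabp4 was the most abundant of the 10 in every group, with means of 6415 CPM per kilobase on NCD at room temperature, 9782 on NCD in the cold, 5312 on HFD at room temperature and 5984 on HFD in the cold, rank 2 or 3 of 13148 coding genes. Fabp3 moved from 417 CPM per kilobase and rank 128 on NCD at room temperature to 2497 and rank 5 on HFD in the cold. In the same groups Lpl moved from 546 and rank 97 to 1919 and rank 9, Cd36 from 722 and rank 66 to 1221 and rank 20, and Slc27a1 from 93.6 and rank 566 to 38.0 and rank 1364. On NCD in the cold Lpl (1341 to 1672 CPM per kilobase over the libraries) and Fabp3 (1101 to 1667) overlapped, as did Fabp3 (964 to 1351) and Cd36 (855 to 975) on HFD at room temperature. The exon union, which had been the planned length, placed Fabp3 above Fabp4 in both HFD groups, as did the longest transcript of any type. By exon union Fabp4 had means of 1060 to 1952 CPM per kilobase. Its ranks were then 15, 7, 16 and 10, in the order of groups used for its means above. By the longest transcript they were 25, 9, 26 and 16.

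Of 54 tested genes in 6 lists of other genes of the pathway, 19 were called in at least 1 of the 4 comparisons, as were 15.5% of all genes tested. Among 14 that mature, assist or inhibit LPL, only Pcsk6, a protease that cleaves proproteins, rose in the cold, on NCD (log2 fold change 0.69, SE 0.17, edgeR adjusted p = 0.0293) and on HFD (0.99, SE 0.17, adjusted p = 0.00441). No gene of this list was called lower in the cold. Of all genes, 3.72% were called higher and 2.55% lower for cold on NCD, and 5.39% and 4.19% for cold on HFD. Apoc1 for cold on HFD had an adjusted p of 0.0459 in edgeR at a log2 fold change of -0.48, under the size required. Apoc1 and Apoc3, apolipoproteins that inhibit lipolysis, were lower on HFD in the cold (-0.74, SE 0.14, adjusted p = 0.0135 and -1.75, SE 0.45, adjusted p = 0.0472), and Apoc3 was scarce, at 0.308 to 2.18 CPM. For HFD in the cold, 2.69% of all genes were called lower. The list's medians ran from -0.11 to 0.10 over the 4 comparisons, against -0.04 to 0.03 over all genes.

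Of 10 lipoprotein receptors and surface binding genes, Lipg, which encodes endothelial lipase, rose in the cold from 7.09 to 9.18 CPM to 16.6 to 27.7 on NCD and from 2.91 to 4.57 CPM to 10.8 to 17.1 on HFD (log2 fold changes 1.47, SE 0.24, and 1.93, SE 0.25, edgeR adjusted p = 0.0055 and 0.00114). Apoe, the apolipoprotein that binds these receptors, fell in the cold on both diets (-0.66 and -0.84, SE 0.15 each, adjusted p = 0.0209 and 0.00535). Lrpap1, a chaperone of the receptor family, was lower for cold on NCD (-0.59) and HFD at room temperature (-0.58). HFD raised the large receptor gene Lrp1 at both temperatures (0.69 and 0.55). It lowered Sorl1, a sorting receptor of the same family, from 278 to 300 CPM to 87.2 to 148 CPM at room temperature and from 435 to 558 CPM to 69.5 to 130 CPM in the cold (-1.40, SE 0.24, adjusted p = 0.0134 and -2.36, SE 0.25, adjusted p = 0.000836). In this list, 1 gene was higher and 2 lower for cold on NCD, and 1 higher and 1 lower for cold on HFD, where 6.27% and 9.58% of all genes were called.

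Of 8 other fatty acid transport and acyl-CoA synthetase genes, 3 rose for cold on NCD and 4 for cold on HFD, and none fell, where 3.72% and 5.39% of all genes rose and 2.55% and 4.19% fell, with list medians of 0.55 and 0.61 against -0.01 and -0.04 over all genes. Slc27a2, another transport protein of the family of Slc27a1, rose on NCD from 93.4 to 125 CPM to 293 to 454 CPM and on HFD from 85.5 to 157 CPM to 407 to 515 CPM (log2 fold changes 1.74 and 1.79, SE 0.23 each, edgeR adjusted p = 0.00194 and 0.00122). This was the opposite direction to Slc27a1. Acsl5, which activates fatty acids to acyl-CoA, rose in the cold (1.37 on NCD, 0.87 on HFD) and was lower on HFD at room temperature (-1.09) and in the cold (-1.59), and was called in all 4 comparisons. Acsl1, the main synthetase of adipocytes, was called for cold on NCD (0.80, SE 0.12, adjusted p = 0.0032), and Acsl3 and Acsl4 for cold on HFD (0.81 and 1.12).

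**Figure D5:**
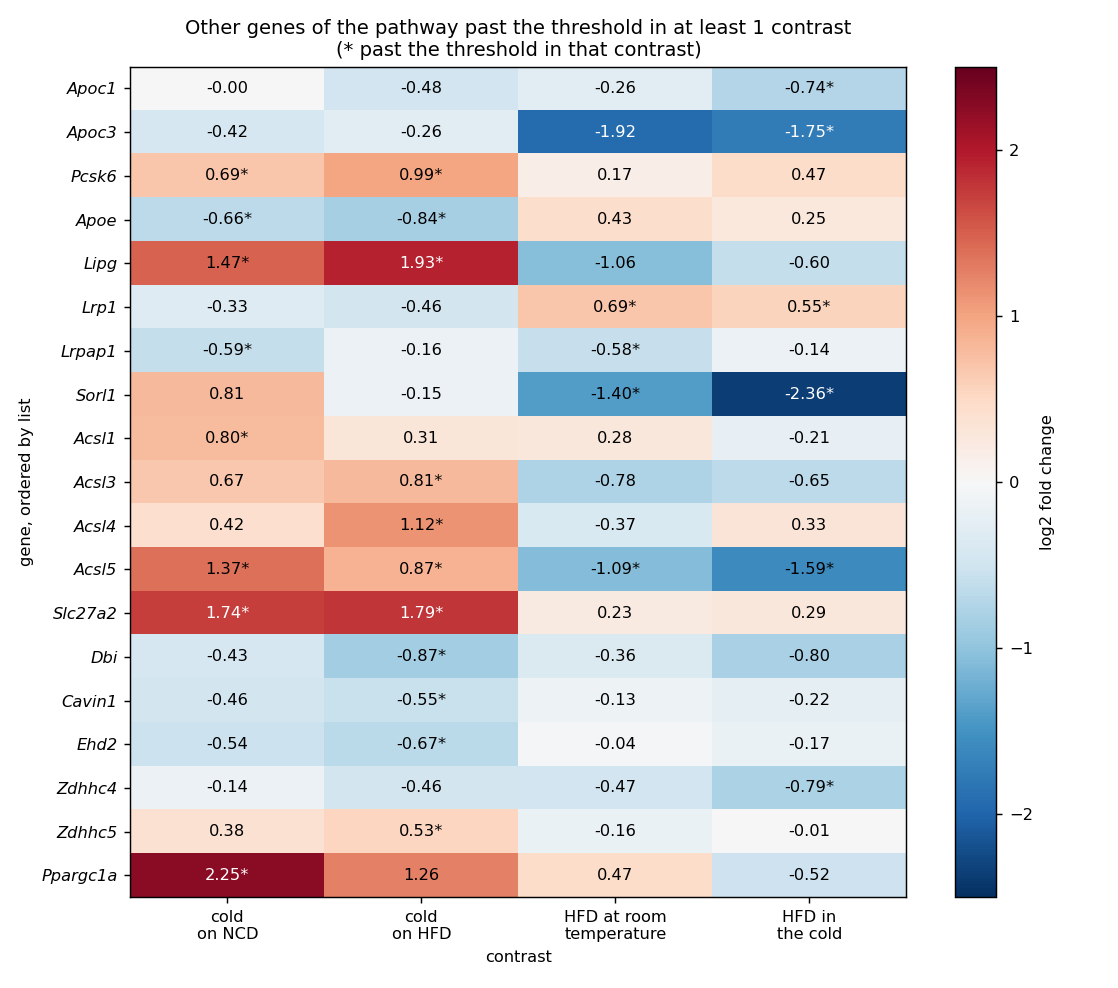
Log2 fold changes (colour and printed value) of the 19 other pathway genes called in at least 1 of the 4 comparisons, with an asterisk where the gene was called. The largest rise called was Ppargc1a for cold on NCD (2.25) and the largest fall Sorl1 for HFD in the cold (-2.36), and Acsl5 carries an asterisk in all 4 columns.

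The remaining lists were set beside the shares of all genes called. These were 6.27% for cold on NCD, 9.58% for cold on HFD and 4.75% for HFD in the cold. Of 2 other fatty acid or acyl-CoA binding genes tested, Dbi, the acyl-CoA binding protein, fell for cold on HFD (log2 fold change -0.87, SE 0.21, edgeR adjusted p = 0.0234). Of 13 partners of CD36 and genes of endothelial fatty acid transfer, none was called for cold on NCD. For cold on HFD the caveolar genes Cavin1 (-0.55) and Ehd2 (-0.67) fell and Zdhhc5, which palmitoylates CD36, rose (0.53), and Zdhhc4, an enzyme of the same kind, was lower for HFD in the cold (-0.79). Of 7 PPAR regulators, only the coactivator gene Ppargc1a was called, for cold on NCD (2.25, SE 0.50, adjusted p = 0.0202), at 74.8 to 475 CPM in the cold against 49.5 to 70.5 CPM at room temperature. A further 12 listed genes were too scarce to test, among them Fabp1, Fabp2, Fabp6, Fabp7, Fabp9 and Fabp12, with at most 15 counts in a library.

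Macrophage and erythroid marker sums were followed as well. Those of 10 macrophage markers were 172 to 219 CPM on NCD at room temperature, 127 to 168 on NCD in the cold, 171 to 245 on HFD at room temperature and 169 to 367 on HFD in the cold. Those of 5 erythroid markers were 1210 to 1773, 1107 to 1585, 793 to 1167 and 986 to 1271 CPM in the same order. Of these lists, Cd68, a lysosomal protein of macrophages, was called higher for cold on HFD (log2 fold change 1.72, edgeR adjusted p = 0.0319). So was Mrc1, the mannose receptor, for HFD in the cold (1.10, adjusted p = 0.0497), where the macrophage median was 0.75. Of all genes, 5.39% were called higher for cold on HFD and 2.06% for HFD in the cold. The part of these cells in the members' levels was not tested.

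Groups that did not overlap were common in these data, which limits what separation of 3 against 3 libraries shows. For cold on NCD 7 of the 10 members and 27.8% of all genes did not overlap. The same held for 6 members and 30.3% of genes with cold on HFD, for 5 and 25.9% with HFD at room temperature and for 7 and 25.2% with HFD in the cold. With replicates 1 and 2 alone, which is batch 1, Lpl and Fabp3 were called for cold on both diets, Angptl8 for cold on HFD (log2 fold change -1.60, edgeR adjusted p = 0.0391) and Slc27a1 for HFD in the cold, and no other call was made. Of all genes 2.12%, 2.51%, 0.253% and 0.32% were called in that fit for the 4 comparisons. Batch 2 holds 1 library a group and allows no test.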

How the data were processed

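Total RNA of 12 iBAT libraries was prepared with the Illumina TruSeq kit. Per the study's methods, the authors trimmed reads with cutadapt and quantified them with salmon against GENCODE M22 and RNAcentral 5 (GRCm38). The deposited values are the authors' estimated counts per gene, whole numbers without normalization, one column per library. Versions and the use of strand in counting were not given in the sources used here. Groups and batches follow the labels, and where nothing shows separate animals p-values measure only the spread between libraries.

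Genes were kept with filterByExpr (minimum count 10), scaled by TMM and fitted as 4 group means over all 12 libraries with edgeR 4.0.16 (R 4.3.3), with Benjamini-Hochberg adjustment over all genes tested. The code was tested on simulated data. Alternatives were DESeq2 1.42.0, its size factors, other filters, batch and replicate terms, fewer libraries and each library left out. Same-numbered libraries deviated together between temperatures within a diet (correlations 0.219, 0.456 and 0.281 on NCD, 0.155, 0.217 and 0.386 on HFD, from the data and not from the labels). The highest correlations with another number were 0.0439, -0.228 and 0.0301 on NCD and 0.134, 0.106 and -0.197 on HFD. The values 0.456 and 0.386 belong to NCD replicate 2 and HFD replicate 3, the libraries with most muscle RNA in their groups. Replicate 3 is also batch 2, and what these correlations reflect was not tested. Between diets only replicate 1 deviated together at both temperatures (0.365 and 0.196). Replicates 2 (-0.18 and -0.211) and 3 (-0.0385 and 0.0387) did not, so diet comparisons were not treated as paired. The main fit held no replicate term, so the cold comparisons were not paired in it either. Results with replicate blocks are given below. Deviations were taken from group means of 3 libraries, so correlations with the same and with other numbers depend on each other.

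The 10 members and all lists were chosen with earlier results of these data known. Pathway genes were named where called in at least 1 contrast. Gene positions are from GENCODE M21 (GRCm38), near copies from BLAST 2.17.0 against its transcripts, and lengths were found for 13148 of 13196 coding genes tested. Estimated counts can split reads between similar copies, so values of such genes are uncertain. The near copies of Fabp3 and Fabp5 were not found in the count table, so no counts of their own were seen.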

Additional observations from a re-analysis of the deposited data

How the results depend on the processing

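Over the alternatives run, Lpl and Fabp3 for both cold comparisons and Slc27a1 for HFD in the cold kept their direction and their call, and 42 values changed sign, none of them of a called difference. Leaving out 1 library at a time gave 2 to 5 called members for cold on NCD, 3 to 4 for cold on HFD, 1 to 3 for HFD at room temperature, 1 to 4 for HFD in the cold, 2 to 3 in the 4-group test and 0 for the interaction. These fits tested 17085 to 17438 genes. Of all genes, 490 to 1112 were called for cold on NCD and 1013 to 1672 for cold on HFD. HFD gave 117 to 369 at room temperature and 239 to 992 in the cold. The 4-group test gave 106 to 255 and the interaction 0 to 22. With replicates 1 and 2 only (8 libraries) the counts of members were 2 for cold on NCD, 0 for HFD at room temperature, 1 for HFD in the cold and 0 in the 4-group test. With the 8 libraries of less muscle RNA, chosen after the data were seen, they were 2, 0, 2 and 0. In the 4-group test these fits called 0 of 16587 and 11 of 16659 genes. With only the 6 libraries compared, HFD in the cold gave 1 member and 149 of 15696 genes. Angptl4 was called for cold on HFD with that choice, as were 855 of 16206 genes. DESeq2 called 8 members in the 4-group test, 4 for cold on HFD (Vldlr was added) and none for the interaction. Of all genes it called 2501 of 19863 in the 4-group test, 2051 of 17699 for cold on HFD and 61 of 15528 for the interaction. Both choices of 8 libraries leave 2 libraries a group and hold the same HFD libraries, replicates 1 and 2. The causes of the other shifts were not tested.

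With a replicate block, 4 members were called for cold on NCD (Fabp4 was lost) and 3 for cold on HFD, and 1241 and 1721 of 16737 genes. With a replicate block within each diet the counts of members were 5 and 4 (Angptl4 was added), and no other call of a member changed. That fit called 1483 and 2153 of 16737 genes.

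Among uncalled values, Lpl for HFD at room temperature was -0.0229 with DESeq2, -0.0110 with DESeq2 size factors, -0.0101 without a filter, -0.0166 with a mean of at least 10 counts, and -0.14 to 0.11 over single libraries left out. Angptl4 for cold on NCD was 0.0317 with the replicate block within diet and -0.53 to 0.68 over libraries left out, and the Angptl8 interaction 0.00404 and -0.47 to 0.45. With replicates 1 and 2 only, Fabp5 for cold on HFD was -0.30, Vldlr for HFD at room temperature -0.0195 and the Fabp5 interaction -0.0275. With less muscle RNA, Fabp5 for cold on HFD was -0.30, Vldlr for HFD in the cold 0.0594, the Gpihbp1 interaction 0.0727 and the Fabp5 interaction -0.25. Over libraries left out, Fabp5 for cold on HFD ran from -0.16 to 0.29, Vldlr for HFD at room temperature from -0.0189 to 0.12 and in the cold from -0.35 to 0.0101, Angptl4 for HFD in the cold from -0.0627 to 0.45 and the Gpihbp1 interaction from -0.16 to 0.10. The order of the members per kilobase changed with the length used in 4 to 9 of 10 places.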
